A study of Rattus norvegicus with 16 samples.

Results

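The genes of the immunoproteasome and of peptide loading onto MHC class I were followed in rat pancreatic islets, the clusters of hormone-secreting cells of the pancreas. Members were all probe sets of an oligonucleotide expression array whose annotated gene symbol was Psmb8, Psmb9, Psmb10, Psme1, Psme2, Tap1, Tap2, Tapbp or B2m. This gave 11 of the 15923 probe sets of the array and 9 of its 10412 genes with a probe set of their own, with a pair of probe sets each for Tap1 and B2m. All islets were first infected for 32 h with an adenovirus at a multiplicity of 50 particles, and no uninfected islets were analysed here. The 4 groups were PPARγ virus then 200 nM GW347845 for 16 h (4 arrays), PPARγ virus then vehicle for 16 h (4 arrays), null virus then 200 nM GW347845 for 16 h (3 arrays) and null virus then vehicle for 16 h (3 arrays). GW347845 is an agonist of PPARγ, a nuclear receptor that regulates transcription when a ligand binds it, the vehicle was 0.004% DMSO, and the null virus carries no PPARγ. A further array, deposited under both null virus labels as replicate 2, was left out. Nothing in the labels tells if replicates came from different islet preparations or cultures, so p-values measure only the spread between these arrays, which may be technical.

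Proteasomes cut cytosolic proteins into peptides. In the immunoproteasome, 3 catalytic subunits (Psmb8, Psmb9 and Psmb10) take the places of the constitutive ones, and the PA28 activator (Psme1 and Psme2) opens the core particle. The transporter formed by Tap1 and Tap2 then moves peptides into the endoplasmic reticulum, where Tapbp (tapasin) holds the empty class I heavy chain, paired with B2m, next to the transporter until a peptide binds. These genes are known as a class that interferon gamma induces, and class I on beta cells is what cytotoxic T cells recognise in autoimmune diabetes.

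Tissue and virus matched the labels. Pparg intensity was 4593 to 6199 in the 8 PPARγ virus arrays, against 25.6 to 51.4 in the 6 null virus arrays. All 6 beta cell markers with a probe set passed the filter on low values, and Ins1 (insulin) lay between 4627 and 7093 on all 14 arrays. Median intensity per array was 56.4 to 67.5. The 3 prime to 5 prime signal ratio of the Gapdh controls, a measure of RNA integrity, was 8.36 to 12.6 with PPARγ virus and 9.05 to 18.9 with null virus. The value of 18.9 belonged to null virus compound replicate 3 alone, and the other 13 arrays did not exceed 12.6. The same ratio of the beta-actin controls was 7.58 to 14.9 with PPARγ virus and 7.83 to 14.5 with null virus. It was highest on PPARγ virus compound replicate 2 (14.9), followed by null virus compound replicate 3 (14.5). Both ratios were at least 7.58 on every array, so the excess of 3 prime signal was not limited to the arrays named.

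The promoters of the 9 genes are shown for the motifs they hold, 1 of which occurred in 7 of the 9. Promoter letters did not enter the choice of members. The class is known as induced by interferon gamma, so matches to an interferon element are no independent result. In the RefSeq promoter windows of the rat build GRCr8 (250 bases before to 50 bases after the start, all 9 genes matched), the core letters of the interferon-stimulated response element, GAAANNGAAA on either strand, occurred in 7 of the 9 genes. The same letters occurred in 3.92% of all 33469 rat promoter windows. The matches, written along the strand that reads GAAANNGAAA with 8 bases on each side and the match in capitals, were as follows; the number is the position of the first base of the match relative to the gene's start.
Psmb8 at -4, opposite strand: aaggaagtGAAAGCGAAAgccacagc
Psmb10 at -73: gcaaaggcGAAAGTGAAAgagaagat
Psmb10 at -17: tggggggtGAAAGCGAAAgtaggaag
Psme2 at -53: tggagagtGAAAGCGAAAgctggggc
Tap1 at -121, opposite strand: aggaagaaGAAACCGAAAgcagccac
Tap2 at -41: agcgaagtGAAAGCGAAAgcccggga
Tapbp at -26: ctttgaggGAAAATGAAAgtgaaagg
Tapbp at -20: gggaaaatGAAAGTGAAAggaaacag
B2m at -150: aagaacatGAAACTGAAAatgggaaa
The Tapbp matches overlap each other. Psmb8, Psme2, Tap2 and the Psmb10 match at -17 hold the same 10 letters. The windows of Psmb9 and Psme1 had no match, which says only that these letters are not in those 300 bases. Of the other motifs searched on both strands, TTCNNNGAA (the gamma-activated site) occurred in 1 of 9 members (Psmb8) and 8.87% of all windows, the NF-κB motif in 3 of 9 (Tap1, Tapbp and B2m) and 7.51%, and GGGCGG (the GC box) in 5 of 9 and 33.1%. The direct repeat that PPARγ binds with its partner RXR, AGGTCANAGGTCA, occurred in none of the 9 and in 0.0538% of all windows.

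Psmb9, the catalytic subunit also called LMP2, was the 1 member whose intensity separated the viruses. Psmb9 read 126.7, 162.3, 128.4 and 122.0 with PPARγ virus and compound (replicates 1 to 4). It read 138.3, 164.5, 141.7 and 161.0 with PPARγ virus and vehicle. It read 177.4, 246.1 and 237.5 with null virus and compound, and 208.3, 210.7 and 257.4 with null virus and vehicle (replicates 1, 3 and 4). Every one of the 8 PPARγ virus arrays was thus below every one of the 6 null virus arrays, with a gap between 164.5 and 177.4. Compound and vehicle arrays of the same virus and number were alike in their deviations from group means (r = 0.45 to 0.70 in 7 pairs). The 8 and 6 arrays therefore do not count as independent samples. The array left out for its conflicting null virus labels read 193.6, which is also above all 8 PPARγ virus arrays. Of the 10 member probe sets that passed the filter on low values, 1 was low without overlap and 0 were high without overlap. Over all 10078 probe sets tested, 0.447% were low and 0.546% were high in the same way.

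The group means of Psmb9 were 134.9 ± 18.5 with PPARγ virus and compound (SD, n = 4), 151.4 ± 13.3 with PPARγ virus and vehicle (n = 4), 220.3 ± 37.4 with null virus and compound (n = 3) and 225.5 ± 27.7 with null virus and vehicle (n = 3). In compound, Psmb9 was lower with PPARγ virus than with null virus by a log2 change of -0.68 ± 0.14 (SE), which is 1.61-fold (limma, adjusted p = 0.0417 over all probe sets tested). In vehicle the same comparison gave -0.56 ± 0.14, or 1.47-fold, and did not pass (unadjusted p = 0.00157, adjusted p = 0.385). Virus and compound together (PPARγ virus and compound, set against null virus and vehicle) gave -0.72 ± 0.14, or 1.65-fold (adjusted p = 0.0306). This comparison shares its arrays with the other 2. The difference between the virus effects in compound and in vehicle was -0.13 (95% interval -0.56 to 0.31, adjusted p = 1.00), so no difference between them was shown.

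In each of these comparisons taken alone, an exact two-sided permutation test of Psmb9 gave p = 0.0571, the smallest that 4 arrays against 3 allow. The call in compound lay near the threshold. It was lost when only both groups compared entered the fit (adjusted p = 0.166), with no filter (0.0512), and without 11 of the 14 arrays in turn, with adjusted p up to 0.230. Without null virus compound replicate 3, the array with the highest Gapdh ratio, the log2 change was -0.60 and the adjusted p was 0.222. The call held without null virus vehicle replicate 4, null virus compound replicate 1 or PPARγ virus compound replicate 2. The call for virus and compound together was lost with only the groups compared (adjusted p = 0.0975), without any one of the 3 null virus vehicle arrays (0.0792 to 0.176) and without PPARγ virus compound replicate 1 (0.103), 3 (0.0909) or 4 (0.108). The log2 change stayed between -0.83 and -0.60 in compound and between -0.81 and -0.63 in the other comparison when single arrays were left out.

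**Figure D1:**
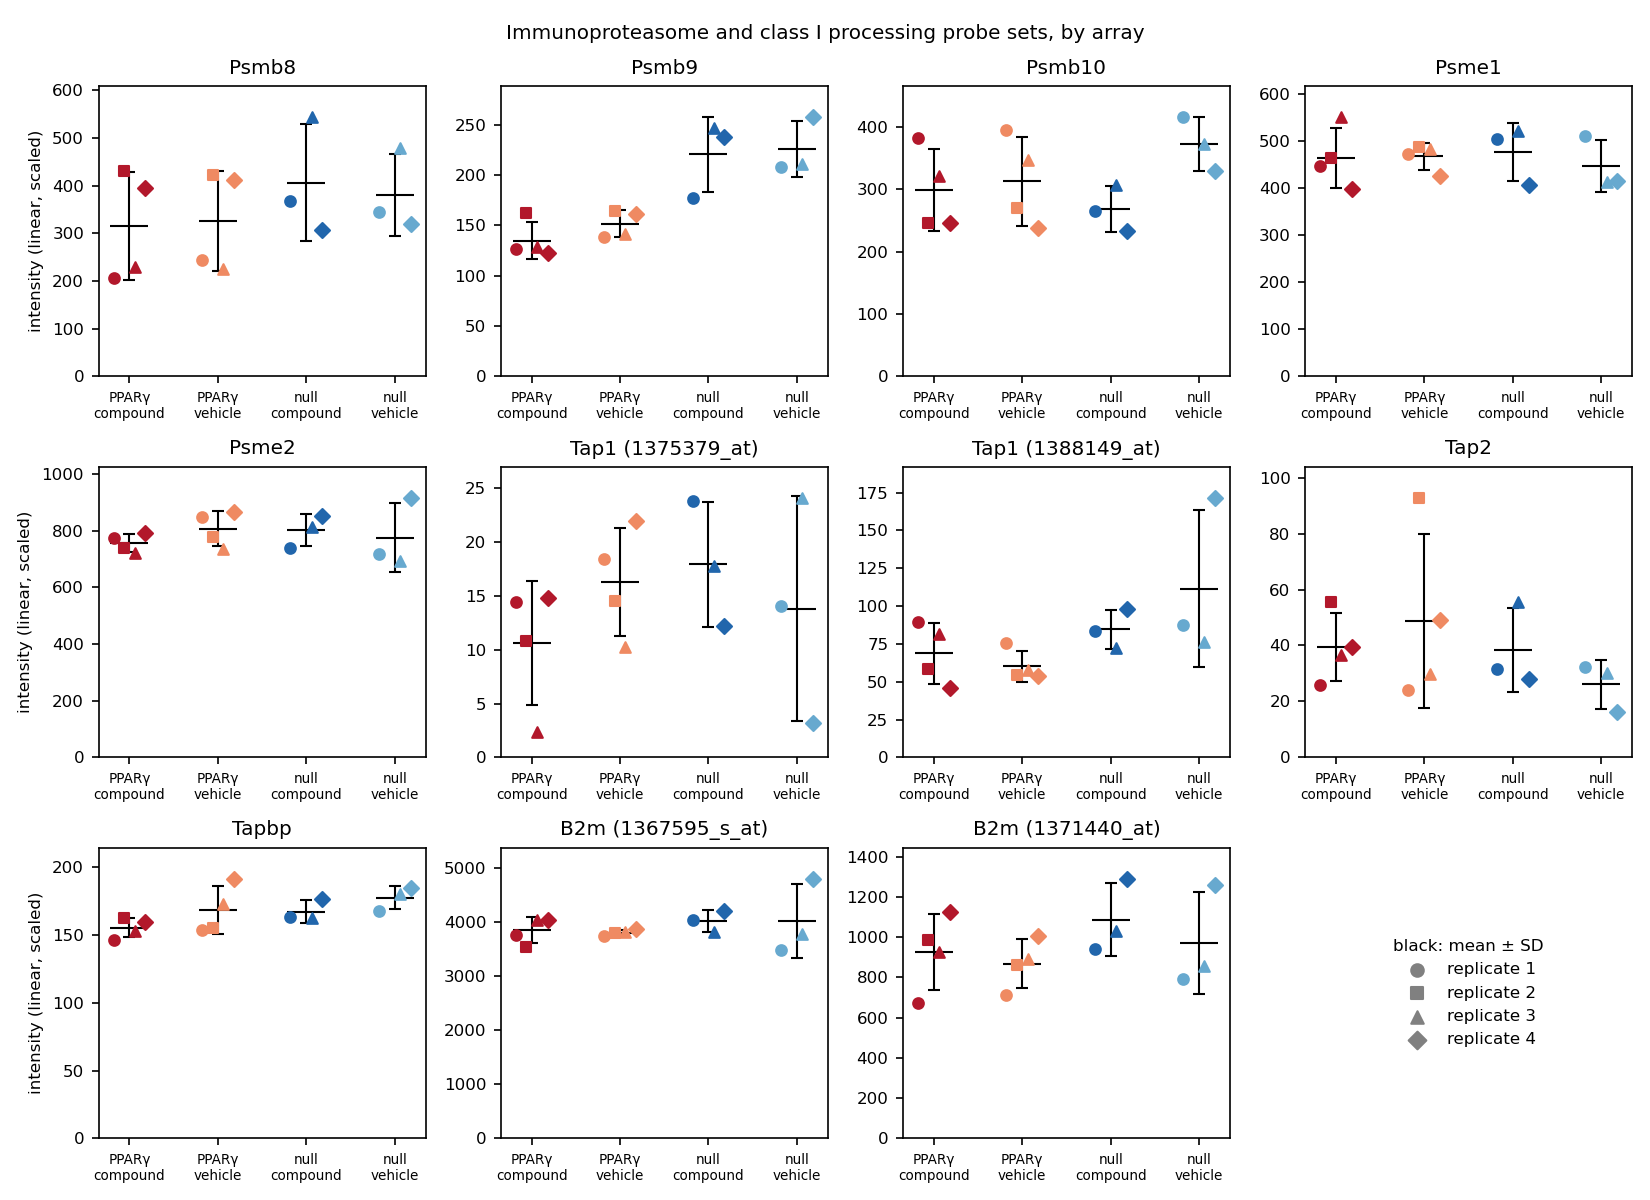
Intensity (linear scale, scaled per array by the authors) of the 11 probe sets on each array; columns are the 4 groups, marker shapes are replicate numbers, and black bars are the mean ± SD. In the Psmb9 panel all 8 PPARγ virus points lie below all 6 null virus points, while in the Psmb8 panel PPARγ virus replicates 2 and 4 and null virus replicate 3 stand high under both treatments.

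No compound effect on Psmb9 passed within a virus. With PPARγ virus, compound against vehicle gave -0.17 (95% interval -0.45 to 0.12, limma, adjusted p = 1.00), and compound was the lower of the pair in all 4 pairs of equal replicate number. With null virus it gave -0.04 (-0.37 to 0.29), and compound was the higher in 1 of 3 pairs. Compound was also the lower in all 4 PPARγ virus pairs for Psme2 and for Tap1 probe set 1375379_at, which was not tested. The share of all probe sets with this order was not counted, so the order alone shows no compound effect.

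Psmb9 is a neighbour of other members. RefSeq places Tap2, Psmb8, Tap1 and Psmb9 next to each other in this order on chromosome 20, in the MHC. Tap1 and Psmb9 are read away from each other, their starts are 457 bases apart, and their promoter windows overlap by 44 bases. Both windows (GRCr8) are given 5′ to 3′ along each gene's own strand, with the interferon-stimulated response element match in capitals, because the pair shares this stretch and only Tap1's window holds a match.
Psmb9, chr20:4668750-4669049, plus strand: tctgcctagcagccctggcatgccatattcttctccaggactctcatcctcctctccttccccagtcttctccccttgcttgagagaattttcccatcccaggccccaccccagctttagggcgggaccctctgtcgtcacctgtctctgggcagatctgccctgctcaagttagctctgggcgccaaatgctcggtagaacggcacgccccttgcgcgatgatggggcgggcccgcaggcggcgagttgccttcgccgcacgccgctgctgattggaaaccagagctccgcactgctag
Tap1, chr20:4668494-4668793, minus strand: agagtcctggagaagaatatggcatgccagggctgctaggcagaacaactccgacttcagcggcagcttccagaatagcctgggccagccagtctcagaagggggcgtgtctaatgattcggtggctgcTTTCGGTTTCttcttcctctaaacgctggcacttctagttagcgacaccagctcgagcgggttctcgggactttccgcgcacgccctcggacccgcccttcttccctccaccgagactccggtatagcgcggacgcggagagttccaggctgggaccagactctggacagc
Tap1's match ends 336 bases upstream of Psmb9's start, which is 86 bases beyond the edge of the Psmb9 window. The matches in Psmb9 were 2 GC boxes, at -131 and -25.

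Psmb8, the catalytic subunit also called LMP7, varied more between replicates than between groups. It read 206.0, 430.8, 229.8 and 395.8 with PPARγ virus and compound, and 243.6, 422.8, 225.7 and 411.8 with PPARγ virus and vehicle. It read 368.9, 544.0 and 307.3 with null virus and compound, and 345.0, 479.2 and 319.1 with null virus and vehicle. The groups overlapped, and replicates of the same virus and number stood high or low together. The vehicle arrays spanned 1.86-fold with PPARγ virus and 1.49-fold with null virus, while compound and vehicle of 1 pair differed by at most 17.9% with PPARγ virus and 13.4% with null virus. The virus effect was -0.39 in compound (95% interval -1.03 to 0.25, limma, adjusted p = 0.798) and -0.26 in vehicle (-0.90 to 0.38, adjusted p = 1.00), and neither passed.

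Psmb10, the subunit also called MECL-1, read 382.4, 246.3, 320.6 and 245.6 with PPARγ virus and compound, and 395.0, 270.4, 347.1 and 238.6 with PPARγ virus and vehicle. It read 265.1, 307.6 and 233.2 with null virus and compound, and 415.8, 371.9 and 329.7 with null virus and vehicle. With null virus, each of the 3 compound arrays was below each of the 3 vehicle arrays. The share of all probe sets that separate 3 arrays from 3 was not counted, so this order alone shows no compound effect. With PPARγ virus the treatments overlapped. The compound effect with null virus was -0.47 ± 0.20 (SE, unadjusted p = 0.0373) and did not pass over all probe sets (limma, adjusted p = 1.00). Its difference from the compound effect with PPARγ virus was 0.40 (95% interval -0.17 to 0.98, adjusted p = 1.00).

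The 2 PA28 activator subunits did not separate the groups. Psme1 averaged 464.4 ± 64.1 with PPARγ virus and compound, 467.3 ± 28.1 with PPARγ virus and vehicle, 477.0 ± 61.3 with null virus and compound and 446.0 ± 55.5 with null virus and vehicle (SD, n = 4, 4, 3 and 3). Psme2 averaged 757.4 ± 32.4 with PPARγ virus and compound, 807.2 ± 60.9 with PPARγ virus and vehicle, 801.1 ± 56.6 with null virus and compound and 775.6 ± 121.6 with null virus and vehicle. All log2 changes of both genes lay between -0.14 and 0.09, and the largest upper limit of their 95% intervals in the virus comparisons was 0.35.

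The transporter subunits had low signals. Tap1 was measured by a pair of probe sets. The first, 1375379_at, lay between 2.4 and 24.1 on all 14 arrays, never above the limit of 39.3, and was not tested. The second, 1388149_at, read 89.3, 58.7, 81.5 and 45.8 with PPARγ virus and compound, and 75.5, 54.5, 57.5 and 53.5 with PPARγ virus and vehicle. It read 83.6, 72.4 and 97.8 with null virus and compound, and 87.2, 76.1 and 171.4 with null virus and vehicle. In vehicle, all 4 PPARγ virus arrays were below the 3 null virus arrays by a narrow margin (75.5 against 76.1), and the value of 171.4 belonged to 1 array. How many of all probe sets separate these 4 and 3 arrays was not counted. The log2 change in vehicle was -0.76 ± 0.26 (SE, unadjusted p = 0.0108) and did not pass (limma, adjusted p = 0.794); in compound it was -0.31 ± 0.26 (adjusted p = 0.819).

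Tap2 read 25.9, 55.5, 36.7 and 39.3 with PPARγ virus and compound, and 23.9, 92.7, 29.7 and 49.2 with PPARγ virus and vehicle. It read 31.6, 55.5 and 28.1 with null virus and compound, and 32.2, 30.0 and 16.1 with null virus and vehicle. It was above the limit on only 4 of 14 arrays, which is the fewest the filter accepts, and the groups overlapped. Its virus effect in vehicle was 0.68, with a 95% interval of -0.14 to 1.50 (limma, adjusted p = 1.00).

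Tapbp, the loading factor, averaged 155.5 ± 7.25 with PPARγ virus and compound, 168.3 ± 17.7 with PPARγ virus and vehicle, 167.3 ± 8.18 with null virus and compound and 177.6 ± 8.74 with null virus and vehicle. Virus and compound together gave -0.19 (95% interval -0.41 to 0.04, limma, adjusted p = 0.699). B2m, the light chain of every class I molecule, had strong signals. Its probe set 1367595_s_at lay between 3543 and 4043 on the 8 PPARγ virus arrays and between 3493 and 4796 on the 6 null virus arrays. The second, 1371440_at, lay between 671.3 and 1126 with PPARγ virus and between 792.0 and 1289 with null virus. The groups overlapped for both, and neither passed in any comparison.

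Over the class, 0 of the 10 tested member probe sets passed at an adjusted p under 0.05 for the virus effect in vehicle, against 0.0397% of all probe sets tested, and 2 (Psmb9 and Tap1) had an unadjusted p under 0.05, against 4.43%. For the virus effect in compound 1 passed (Psmb9, 0.705% of all), and that 1 alone had an unadjusted p under 0.05 (9.19% of all). For virus and compound together 1 passed (Psmb9, 0.665% of all), and 2 (Psmb9 and Tap1) had an unadjusted p under 0.05 (8.48% of all). The compound effect with PPARγ virus called 0 members (0.0595% of all) and none at an unadjusted p under 0.05 (2.93% of all). With null virus, 0 passed (0% of all) and 1, Psmb10, had an unadjusted p under 0.05 (0.943% of all). For the difference between the virus effects 0 passed (0% of all), and none had an unadjusted p under 0.05 (1.42% of all).

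The median log2 change of the 10 members was -0.11 for the virus effect in vehicle, against 0.00 over all probe sets tested, and -0.09 in compound, against -0.03. For virus and compound together it was -0.12, against -0.03, and 8 of the 10 were below 0, as were 55.3% of all probe sets. For the compound effect it was -0.06 with PPARγ virus, against -0.02, and 0.03 with null virus, against 0.00. The median 95% interval of the 10 members reached 0.36 to either side in the virus comparisons, wider than these medians.

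**Figure D2:**
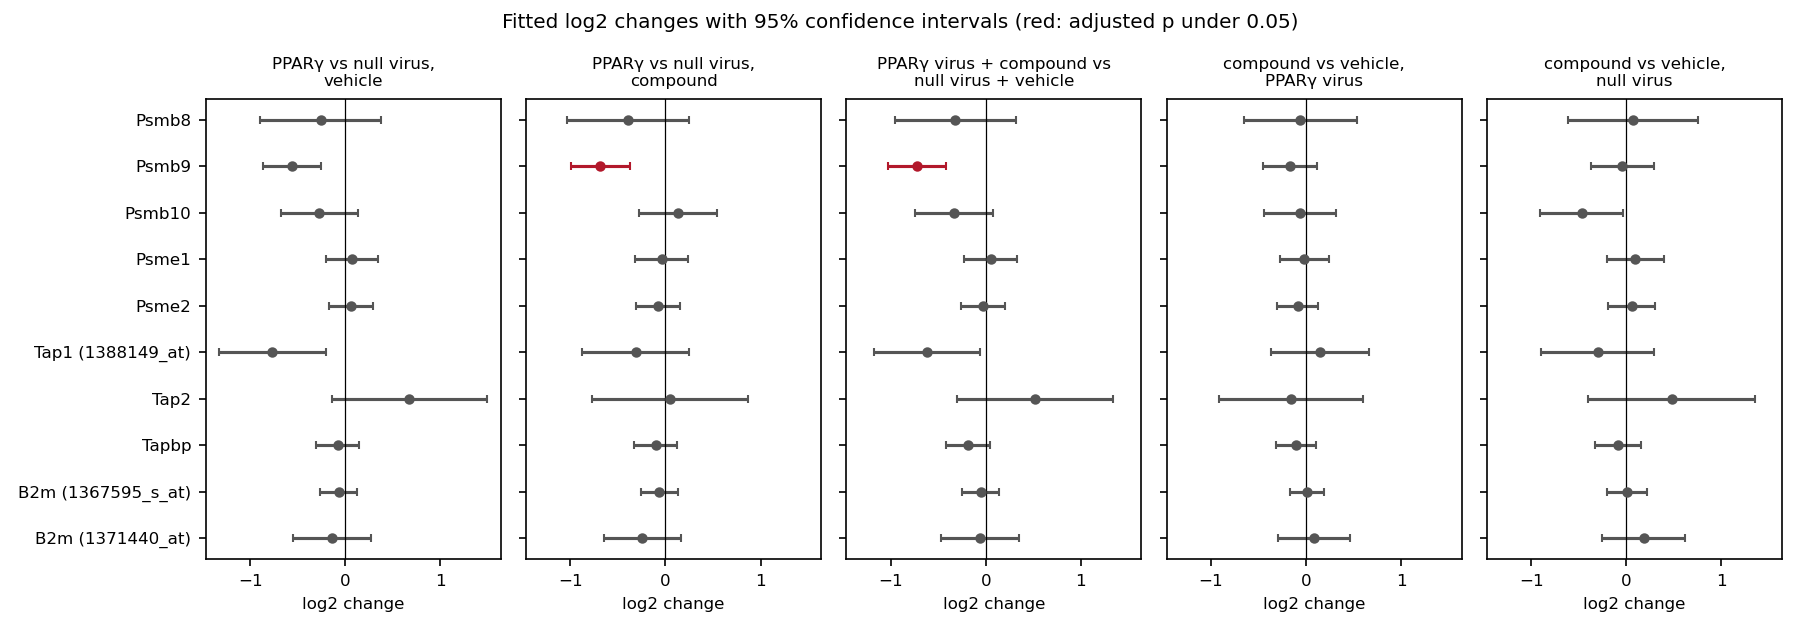
Log2 change (x axis) with its 95% confidence interval for the 10 tested member probe sets in 5 comparisons; red marks an adjusted p under 0.05. Psmb9 is red in 2 panels, at -0.68 and -0.72, and the intervals of 7 of the other 9 probe sets include 0 in every panel; those of Tap1 and Psmb10 miss it in 2 panels and 1 panel without passing the adjustment.

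The members did not vary as 1 unit across arrays. Over the 14 arrays, with group means removed, the Pearson correlations of the 45 pairs of tested member probe sets ranged from -0.80 to 0.81, with a median of 0.05, and 24 were positive. The closest pair was Psmb8 with Tap2 (r = 0.81), which was above the limit on only 4 of the 14 arrays. Psmb8 ran against Tap1 (r = -0.72) and against Psmb10 (r = -0.58). Tap2 and Tap1 both lie next to Psmb8 in the MHC. Psmb10 ran against B2m probe set 1371440_at (r = -0.80). The points share arrays of 14 samples and the same per-array scaling, and are given as a description. The genes whose pattern was most like the mean of the members were Erh (r = 0.91), Sp110 (0.90), Tbc1d14 (0.87), Pcbp1 (0.87), Bpgm (0.87) and Agtrap (0.86) over the 14 arrays. With group means removed they were Bpgm (0.90), Gtf2h4 (0.88), Ptdss1 (0.88), Sp110 (0.88), Psmd7 (0.88) and E2f5 (0.86). These are the 6 highest r of all tested single-gene probe sets outside the members, picked from these same arrays. The highest of so many r values over 14 arrays can be large by selection alone, and no p-value is given. The mean is also taken over members that did not vary as 1 unit.

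Some class I heavy chain probe sets, whose products Tapbp and B2m serve, split strongly by replicate. RT1-CE10 (probe set 1388203_x_at) read 635.7, 57.9, 531.4 and 70.0 with PPARγ virus and compound, and 584.3, 55.6, 544.4 and 50.0 with PPARγ virus and vehicle. It read 506.3, 131.4 and 665.0 with null virus and compound, and 520.8, 128.4 and 513.8 with null virus and vehicle. The low arrays were replicates 2 and 4 with PPARγ virus and replicate 3 with null virus, under both treatments. On these 6 arrays Psmb8 lay between 395.8 and 544.0, and on the other 8 between 206.0 and 368.9. RT1-CE12 followed RT1-CE10, with 1688 to 2608 on the 6 arrays and 3083 to 4320 on the other 8. RT1-T24-4 went the opposite way, with 451.8 to 819.3 on the 6 and 181.0 to 376.8 on the other 8. Psmb9 did not split in this way, with 122.0 to 246.1 on the 6 and 126.7 to 257.4 on the other 8. Within the 6 arrays Psmb8 was 395.8 to 430.8 with PPARγ virus and 479.2 to 544.0 with null virus, the latter from only 2 arrays, both replicate 3. Within the other 8 it was 206.0 to 243.6 with PPARγ virus and 307.3 to 368.9 with null virus. A virus difference within these sets was not tested, and the virus effect on Psmb8 without the split did not pass. Of the 15 tested probe sets of class I heavy chains and related genes, 4 were lower on all 6 arrays than on the other 8, 2 were higher and 9 overlapped, the 4 of RT1-S3 among them. These sets of arrays were seen in the RT1-CE10 values and are described without a test, so RT1-CE10 is among the 4 by construction. The share of all probe sets tested that divide the same arrays was not counted. The counts are therefore not shown to be particular to class I genes. Probe sets ending in _x_at or _s_at can share probes between related genes, so the RT1 names are uncertain.

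**Figure D3:**
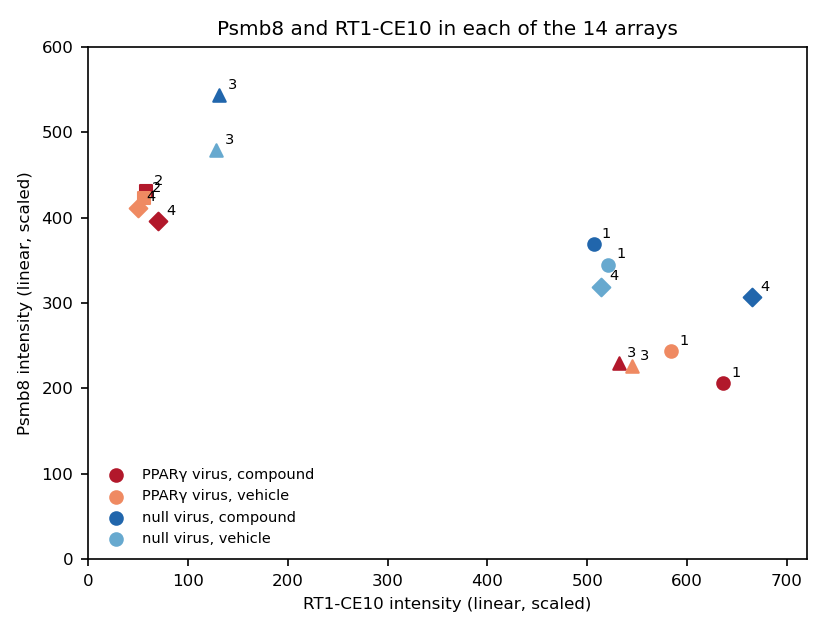
Psmb8 intensity (y axis) against RT1-CE10 intensity (x axis), both linear, on the 14 arrays; colours are groups, and shapes and digits are replicate numbers. The 6 arrays at the left (RT1-CE10 of 50.0 to 131.4) have Psmb8 of 395.8 to 544.0, and the 8 at the right (506.3 to 665.0) have 206.0 to 368.9. On each side the PPARγ virus points lie below the null virus points, which at the left are 2 arrays of replicate 3. The sides were set after the values were seen, and a virus difference within them was not tested.

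The rest of the pathway was described by lists of genes. Of the constitutive catalytic subunits that immunoproteasome subunits replace, 2 had a probe set of their own. Psmb5 read between 1413 and 1879 with PPARγ virus and compound and between 1698 and 2029 with null virus and compound, a log2 change of -0.16 (limma, adjusted p = 0.819). Psmb7 gave -0.33 (adjusted p = 0.578). Psmb9's change of -0.68 was not tested against these. Of 11 other core particle subunits 0 passed in any of the 6 comparisons, of 18 probe sets of the 19S regulatory particle 0, and of 8 probe sets of other activators and assembly factors 0, Pomp (the assembly chaperone of the core) among them. At an unadjusted p under 0.05, the virus effect in compound had 2 core subunits lower (Psma1 and Psma3) and 0 higher, 1 probe set of the 19S particle higher (Psmd3) and 1 of the activators and assembly factors higher (Psmg2). Virus and compound together had 1 core subunit lower (Psma3), and the other 4 comparisons had none in these 3 lists. The medians of these 3 lists for the virus effect in compound were -0.05, 0.00 and 0.06, against -0.03 over all probe sets tested.

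Among loading and trimming partners 9 probe sets were tested and 0 passed. Canx (calnexin, a chaperone of new heavy chains) gave 0.24 for the virus effect in compound (limma, adjusted p = 0.456) and was the 1 probe set of this list with an unadjusted p under 0.05 in any comparison. Of 15 probe sets of class I heavy chains and related genes 0 passed in any comparison, and none had an unadjusted p under 0.05. Their median virus effects were -0.17 in compound and -0.06 in vehicle. Of 5 class II probe sets 0 passed, and none had an unadjusted p under 0.05.

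Of 10 probe sets of interferon signalling genes 0 passed in any comparison by limma. At an unadjusted p under 0.05, Irf7 and Irf9 were lower and Ifngr1 (a chain of the interferon gamma receptor) was higher for the virus effect in compound, and Ifngr1 was higher for virus and compound together. Irf7, a transcription factor of the interferon response, read 107.6, 223.2, 70.6 and 120.5 with PPARγ virus and compound, and 208.3, 177.7 and 235.3 with null virus and compound. PPARγ virus replicate 2 lay among the null virus arrays and the other 3 lay below them (log2 change -0.76, unadjusted p = 0.0291, adjusted p = 0.452). Irf1, which binds interferon-stimulated response elements, gave -0.12 in compound and -0.10 in vehicle (adjusted p = 0.928 and 1.00). The median virus effect of the 10 probe sets was -0.21 in compound and -0.13 in vehicle. Nlrc5, which drives class I genes, had no probe set of a single gene.

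**Figure D4:**
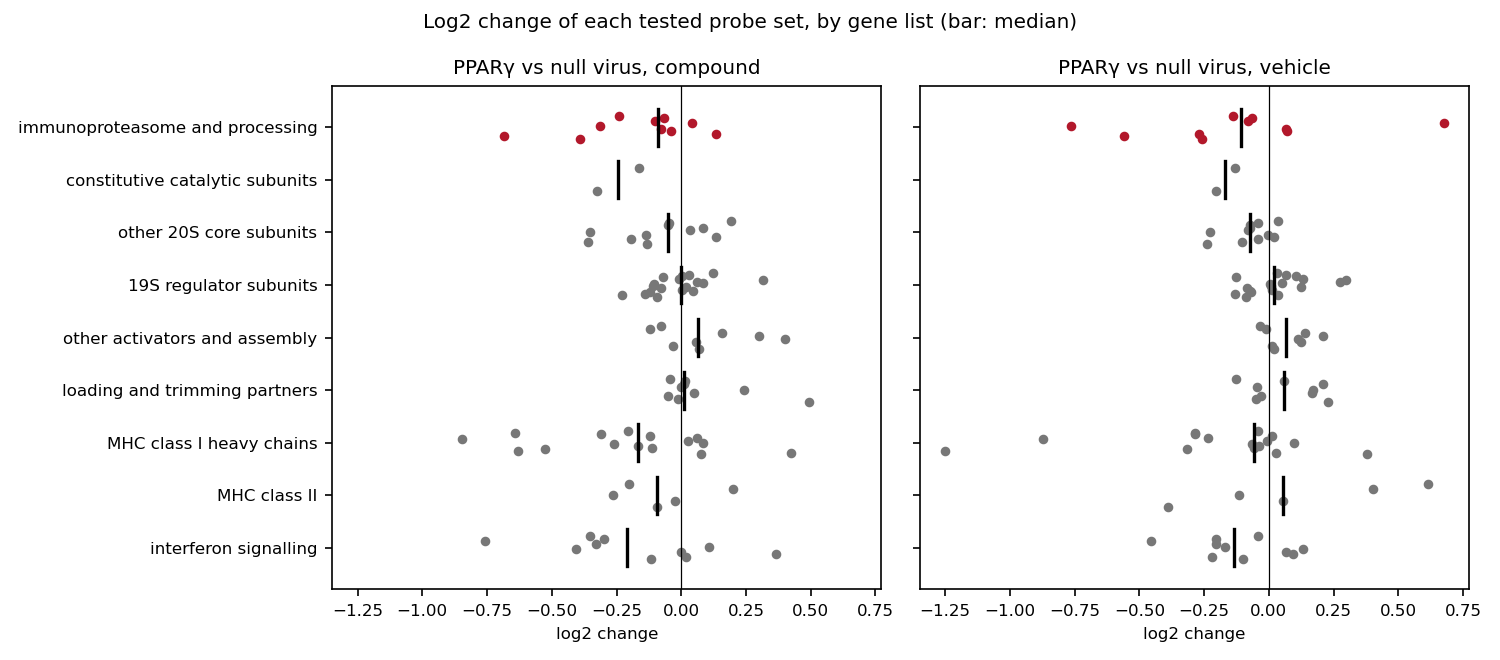
Log2 change (x axis) of each tested probe set for the virus effect in compound (left) and in vehicle (right), one line per gene list; points are probe sets, black bars are medians, and red marks the 10 members. The members spread from -0.68 to 0.13 in compound and from -0.76 to 0.68 in vehicle.

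Islet tissue holds other cells that express the immunoproteasome, and in bulk RNA fewer cells of a type and less RNA per cell cannot be told apart. Of 16 leukocyte markers with a probe set 9 were tested and 0 passed by limma in any comparison. The 7 others, Ptprc (CD45), Cd3e and Cd8a among them, did not exceed 45.4 on any array, and none of the 16 was at 0 on all arrays. The summed level of all 16 markers was 758.1 to 1090 with PPARγ virus and compound, 742.7 to 1294 with PPARγ virus and vehicle, 677.4 to 1069 with null virus and compound and 759.9 to 1100 with null virus and vehicle, and the sums of all 4 groups overlapped. Aif1, a macrophage marker named after its values were seen, gave -0.55 for the virus effect in compound (unadjusted p = 0.00769, adjusted p = 0.250). It was the 1 leukocyte marker with an unadjusted p under 0.05 there and for virus and compound together, and was joined by Cd53 for the compound effect with PPARγ virus, all with lower values. Aif1 has 2 probe sets, of which 1 was tested. Of the 9 leukocyte probe sets tested, 5 were below 0 for the virus effect in compound, and the highest was 0.38. Their median was -0.03, as it was over all probe sets tested. The part of Aif1 in the Psmb9 result was not tested. Of the 4 duct markers 1 passed, Krt19 (keratin 19), which rose with PPARγ virus in compound. It read 296.1, 205.0, 226.3 and 245.2 with PPARγ virus and compound, against 138.7, 66.5 and 80.5 with null virus and compound. Its log2 change in compound was 1.36 ± 0.27 (SE, limma, adjusted p = 0.0284). Krt19 also passed for virus and compound together (1.30, adjusted p = 0.0391) and did not in vehicle (0.80, adjusted p = 0.774). Krt18 (keratin 18) was higher at an unadjusted p under 0.05 in the same 3 comparisons without passing (log2 changes of 0.29 to 0.38), and Spp1 (osteopontin) ran the other way without passing (-0.34 in compound, adjusted p = 0.929). Of 8 endothelial and stromal, 6 beta cell and 2 acinar probe sets 0 passed. At an unadjusted p under 0.05 stood Pdx1 (a beta cell transcription factor), which gave -0.67 for virus and compound together (adjusted p = 0.0904) and was also lower in both virus comparisons, and Cela1 (an acinar elastase), higher for virus and compound together. Whether the Krt19 or Pdx1 values bear on Psmb9 was not tested.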

How the data were processed

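Total RNA of rat islets was deposited in 16 columns, 4 per group by their labels, from 15 distinct arrays. The deposited values are intensity on a linear scale, 1 per probe set, which the authors had scaled per array (mean after trimming 2% at each end 150.0); for the summary software and the genome build, "not given in the sources used here" applies. The 2 columns of null virus replicate 2 held the same value in 100% of probe sets and were left out, leaving 14 arrays. Precision is limited by how many arrays a group has, as arrays do not count molecules.

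Values were taken as log2(intensity + 4.6), 4.6 being the 10th percentile of positive values, so log2 changes understate those of low genes. Probe sets above 39.3 (the 40th percentile) in at least 4 arrays were tested (10078; 57 control probe sets were not). Limma 3.58.1 in R 4.3.3 fitted a mean per group (empirical Bayes with trend) and gave 6 contrasts, with Benjamini-Hochberg adjustment over all probe sets tested and a threshold of 0.05. The code was tested on simulated data. SE and intervals come from this fit; per-group errors are SD. Exact permutation tests used scipy 1.17.1, and figures were drawn with matplotlib 3.10.9 in Python 3.11.15.

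Gene symbols came from the platform annotation; promoters came from RefSeq (GRCr8). All member probe sets are named. From each list the text could name members past the threshold and up to 3 others by highest mean; other list genes are named as not measured, or were picked with their values known (those with an unadjusted p under 0.05, Ptprc, Cd3e and Cd8a). The members and lists were chosen with earlier results of these data known. Alternatives were the doubly labelled array, quantile normalization, the pseudocount, the filter, the groups in the fit, the variance trend, a replicate block and leaving out each array. Arrays of the same virus and number correlated in their deviations from group means in all 7 pairs (r = 0.45 to 0.70), against -0.14 to 0.43 in the 12 pairs of the other virus, so numbers pair vehicle with compound within a virus.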

Additional observations from a re-analysis of the deposited data

Results flagged for a closer look

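Of 22 groups of 4 arrays, 1 held a member value far from the rest: Psmb9 in PPARγ virus compound replicate 2, at 162.3, where the other 3 arrays of the group lay between 122.0 and 128.4. The gap was 0.841 of the group's range, against a critical value of 0.829, which chance passes in about 1 of 20 such groups. The same array had an Irf7 intensity of 223.2, against 70.6 to 120.5 in the other 3. It also had the highest 3 prime to 5 prime ratio of the beta-actin controls (14.9), whose bearing on the Psmb9 value was not tested. Without this array the virus effect in compound on Psmb9 was -0.77 on the log2 scale (limma, adjusted p = 0.0250).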

How the results depend on the processing

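Of 1515 values of the 60 member results (10 probe sets in 6 comparisons) under the alternatives, 1434 kept their direction and their side of the threshold, 20 lost the call and 61 changed sign, of which 0 had been called; the cause was not tested except where fewer arrays or more probe sets enter by construction. The 1 call in compound (Psmb9) became 0 with no filter and with only the groups compared, and 0 to 1 when single arrays were left out. The 1 call of virus and compound together became 0 with only the groups compared, and 0 to 1 when single arrays were left out. For the virus comparisons, the replicate block within each virus was a shared correlation (0.53) between arrays of the same virus and number. With it limma left Psmb9 at adjusted p = 0.0455 in compound, 0.0307 for virus and compound together and 0.423 in vehicle. A fixed replicate block over all groups gave 0.00763, 0.00503 and 0.0610. That block also pairs numbers across viruses, where deviations correlated at -0.14 to 0.43, so its smaller p-values rest on a pairing that was not shown. No paired fit changed a call of a member. Calls over all probe sets ranged from 1 to 34 in vehicle (4 as reported), 31 to 211 in compound (71), 39 to 177 for virus and compound together (67), 2 to 40 for compound with PPARγ virus (6) and 0 to 5 for the difference between virus effects (0), and were 0 throughout for compound with null virus.

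Sign changes of log2 changes that had not passed were these. Tap2 in compound was -0.037 with all 16 columns or with the array of conflicting labels kept as null virus compound, and -0.21 with the fixed block. With quantile normalization B2m (1367595_s_at) was 0.0099 in compound and 0.036 for virus and compound together. With that array kept as null virus vehicle, compound with null virus gave -0.014 for Psmb8 and 0.012 for Psmb9; Psme2 for virus and compound together was 0.0023 so and with all 16 columns. Leaving out single arrays turned the sign of 24 of these uncalled changes. For the virus effect in vehicle, Psme2 lay between -0.010 and 0.19, B2m (1367595_s_at) lay between -0.16 and 0.066 and B2m (1371440_at) lay between -0.27 and 0.065. For the virus effect in compound, Psme1 lay between -0.15 and 0.031 and Tap2 lay between -0.13 and 0.21. For the compound effect with PPARγ virus, Psmb10 lay between -0.19 and 0.057, B2m (1371440_at) lay between -0.021 and 0.23, Psmb8 lay between -0.23 and 0.12, Psme1 lay between -0.10 and 0.055, Tap2 lay between -0.40 and 0.0061 and B2m (1367595_s_at) lay between -0.012 and 0.051. For the compound effect with null virus, B2m (1367595_s_at) lay between -0.084 and 0.14, Psme2 lay between -0.020 and 0.18, Psmb8 lay between -0.15 and 0.25, Psmb9 lay between -0.13 and 0.11 and Tap1 (1388149_at) lay between -0.52 and 0.042. For the effect of virus and compound together, Psme2 lay between -0.099 and 0.10, B2m (1367595_s_at) lay between -0.15 and 0.079, B2m (1371440_at) lay between -0.19 and 0.14 and Psme1 lay between -0.030 and 0.15. For the difference between the virus effects, Tapbp lay between -0.064 and 0.039, B2m (1371440_at) lay between -0.31 and 0.043, B2m (1367595_s_at) lay between -0.13 and 0.097 and Psmb8 lay between -0.31 and 0.094.

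Tap1 probe set 1375379_at was fitted only with no filter and passed in none of the 6 comparisons (limma, adjusted p of 0.804 or more); no other alternative gave it a value. Fits with only the groups compared were not run for the difference between virus effects, which needs all 4 groups.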
